A study of Mus musculus with 3 samples.

Results

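The HDAC3 occupancy list of mouse embryonic skin was described on its own, peak by peak and gene by gene. It comprised all 57936 peaks that the authors had called for HDAC3 against input chromatin, out of 105091 peaks in the series. Wild-type embryos at E18.5, shortly before birth, had provided the dorsal skin epithelium, which was fixed and taken through chromatin immunoprecipitation with sequencing (ChIP-seq). The libraries considered here were 1 precipitated with an HDAC3 antibody (Abcam ab7030) and 1 of input DNA made without antibody, and the latter entered through the input tags listed for each peak. By their labels both share genotype, age and tissue and differ in the antibody; the third library of the series, precipitated with a KLF4 antibody, is not used. The labels do not say how many embryos contributed. With 1 library per group there was no replicate spread and no test between conditions, so every value below describes these libraries; intervals are at 95% and cover counting error only.

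HDAC3 removes acetyl groups from histones and is held on chromatin mainly through corepressors such as NCoR1, which bring it to sequence-specific transcription factors and stimulate its enzymatic activity. HDAC3 does not itself read DNA sequence. Whether other proteins held it at the peaks described here was not tested. In the epidermis, basal keratinocytes divide and adhere to the basement membrane, spinous cells above them switch keratins, and the outermost cells build a cornified envelope and a lipid seal. A ChIP peak shows where the protein was cross-linked to DNA and gives no RNA level, so the tissue label could not be checked against marker expression. Occupancy at marker genes of several cell types is given near the end in its place.

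Sequences upstream of occupied gene starts are shown first, as examples of the promoters in which HDAC3 peaks were centred. The stretches are the 250 bases upstream of the start, from RefSeq on GRCm38.p6, for 4 genes among those with the highest peaks centred within such a stretch. Each is written 5' to 3' on the strand of its gene. Capitals mark matches, on either strand, to any of 7 short motifs. AP-1 factors were searched as TGANTCA and the related CRE site as TGACGTCA. ETS factors were searched as CCGGAAG and the E-box as CACGTG. The CCAAT box was searched by its own letters, the GC box as GGGCGGG and grainyhead factors as AACCGGTT. Where motifs overlapped, each was counted.
Cldn4 (chr5:134946935-134947184, minus strand): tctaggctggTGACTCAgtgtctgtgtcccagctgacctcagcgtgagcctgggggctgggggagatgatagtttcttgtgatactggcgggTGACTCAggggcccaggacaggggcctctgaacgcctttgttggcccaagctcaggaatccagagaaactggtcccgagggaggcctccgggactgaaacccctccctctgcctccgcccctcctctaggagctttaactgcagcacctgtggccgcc
Tmc6 (chr11:117780693-117780942, minus strand): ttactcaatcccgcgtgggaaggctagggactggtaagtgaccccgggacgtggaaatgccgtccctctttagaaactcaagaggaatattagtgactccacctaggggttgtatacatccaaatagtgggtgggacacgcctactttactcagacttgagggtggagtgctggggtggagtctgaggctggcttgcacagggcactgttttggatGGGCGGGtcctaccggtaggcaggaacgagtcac
Washc2 (chr6:116207783-116208032, plus strand): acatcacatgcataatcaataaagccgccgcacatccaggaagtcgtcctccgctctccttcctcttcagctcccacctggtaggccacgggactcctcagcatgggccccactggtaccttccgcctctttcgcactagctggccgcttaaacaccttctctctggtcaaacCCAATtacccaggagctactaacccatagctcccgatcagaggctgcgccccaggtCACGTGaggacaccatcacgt
Ugt1a1 (chr1:88211709-88211958, plus strand): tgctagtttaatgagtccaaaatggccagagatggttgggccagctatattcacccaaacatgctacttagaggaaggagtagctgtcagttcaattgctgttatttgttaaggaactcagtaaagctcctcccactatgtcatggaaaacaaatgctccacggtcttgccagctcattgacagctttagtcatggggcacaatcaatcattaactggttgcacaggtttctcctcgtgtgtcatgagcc

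Cldn4 encodes a tight junction claudin. Its upstream stretch had 62.0% G and C and carried the AP-1 letters at 2 places, starting 240 and 158 bases before the start, while the peak centre lay 91 bp before it. Tmc6, a transmembrane channel-like gene that lies head to head with Tmc8, had a single GC box in this stretch. Washc2, a subunit of the WASH complex on endosomes, had an E-box starting 21 bases and a CCAAT box starting 77 bases before the start. The stretch of Ugt1a1, the bilirubin-conjugating enzyme, had 44.8% G and C and none of the 7 motifs. The peaks at these 4 genes had normalised tag counts of 40.5, 35.9, 35.4 and 34.3, on the authors' scale of tags per 10000000, on which 1 tag of this library counts 0.176. They stood over 1, 7, 12 and 13 input tags respectively. The high peaks thus lay on promoters of different composition, with and without the searched letters.

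Most HDAC3 peaks were low, and a small number were very high. The normalised tag count had a median of 5.11, which is 29 tags, with quartiles of 4.23 and 7.40 and a maximum of 67.6. Only 8613 peaks (14.9%) reached 10 and 1468 (2.53%) reached 20. The library held 56787485 tags, 3.95% of them in peaks, and the list kept 18.4% of the 315415 putative peaks found before comparison with input and surroundings. The 10 highest peaks spanned 56.7 to 67.6. At the top stood a place 7161 bp from Cdh3, the P-cadherin gene, with a normalised tag count of 67.6 (61.0 to 74.7, exact Poisson interval) over 4 input tags. The next lay 29026 bp inside the aldehyde oxidase gene Aox2, with 66.6 (60.02 to 73.6) over 3 input tags. Peaks near Mdga1, a cell adhesion gene, and Skor1, a corepressor gene of the SKI family, followed with 63.7 and 63.6. These 4 intervals overlap, so their order is not resolved by the number of tags.

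Further high peaks lay in or near genes of quite different function. Plekha6 was the only gene among the 10 with the peak at its start, at 59.9. Gtf2ird1, a transcription factor gene, carried 59.2 inside the gene over 2 input tags, and Hdac5, a class IIa deacetylase gene, carried 56.7 inside the gene, 16291 bp from its nearer end. The peak 52264 bp outside the annexin gene Anxa3 had 59.0. The keratin gene Krt42 had a peak of 57.1 at a distance of 19198 bp, and that place also had 20 input tags, equal highest of the whole list with a peak near Bcas1.

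Input tags under the peaks were few and rose with peak height. The list gives the input as Control Tags, with 0 written as 0.5. No input tag was found under 8.16% of all 57936 peaks (7.94 to 8.38, exact Clopper-Pearson), and the mean over peaks on chromosomes was 2.60, against 2.57 that an even spread of the input would leave per peak width. Peaks without input tags had a median normalised tag count of 4.05. Those with 1, 2, 3 and 4 input tags had medians of 4.23, 4.58, 5.28 and 7.40, those with 5 to 9 had 12, and the 495 peaks with 10 or more had 20.6. Spearman's correlation between both measures across 57920 peaks was 0.70, as a description. The calling rule fixes part of this relation, because a peak had to exceed the input at least 4-fold: the lowest normalised tag count was 2.29 without input tags and 13.6 with 10 or more.

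**Figure D1:**
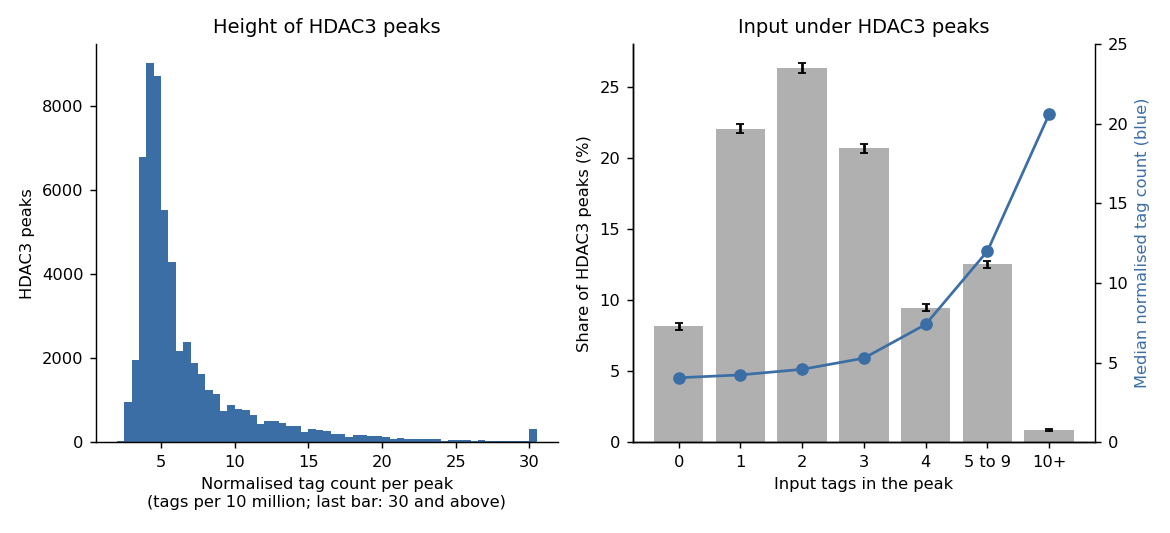
Left, number of HDAC3 peaks by normalised tag count (tags per 10000000, steps of 0.5, last bar 30 and above). Right, share of peaks (grey bars, exact 95% intervals) and median normalised tag count (blue points, right axis) by number of input tags. The median rises from 4.05 without input tags to 20.6 at 10 or more.

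The fold over input ranked peaks differently from their height. Its correlation with the normalised tag count was -0.10 across the same peaks, and with the input tags -0.72. The latter is partly built in, because the fold is a ratio to those same input tags. Among peaks without an input tag, the highest lay 10373 bp inside Copg1, a coatomer subunit gene of Golgi transport, with a normalised tag count of 31.3. An input of 0 allows up to 3.69 tags there (exact Poisson). Gemin4, a component of the SMN complex, followed with 26.6 at its start. The next were inside 1110051M20Rik at 24.8, inside Foxo3, a forkhead transcription factor gene, at 23.4, and inside Slc22a4, a carnitine transporter gene, at 22.7. At the other end, the 5 peaks with the most input tags were those near Krt42 and Bcas1 (20 each), inside Sos2 and inside Ski (19 each), and near Agfg2 (18). Ski, a corepressor gene that acts with NCoR proteins, had a normalised tag count of 33.5 and a fold of 4.89, close to the limit of 4.

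The focus ratio, the fraction of a peak's tags that the caller finds on the proper side of the centre, was narrow in range. Its median was 0.781 with quartiles of 0.712 and 0.848. It barely followed height: Spearman's correlation with the normalised tag count was -0.09, and the medians were 0.772 in the highest 10% of peaks and 0.786 in the lowest 10%. It followed the fold over the surrounding 10 kb more closely, at 0.23. Of the 1000 highest peaks, all at 22.4 or above, the ratio ran from 0.470 to 0.981 with a median of 0.790.

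The highest focus ratio among those high peaks was 0.981, at a peak 128 bp outside Mnd1, a meiotic recombination gene. The start of the thiamine transporter gene Slc19a3 had 0.980. An end of Grhl2, a grainyhead factor of epithelial identity, had 0.956, followed by 0.952 near the potassium channel gene Kcnn3 and 0.944 inside the homeobox gene Meis1. The lowest ratio among them was 0.470, at a peak 267 bp outside Wnt10b, a hair placode ligand gene. An end of Egr1, an immediate early zinc finger gene, followed at 0.507. Crybg2 (0.553), Cbfa2t3 (0.591), which encodes a corepressor of the ETO family, and Rhod (0.599) completed the group. The fold over the surrounding 10 kb was 17.5 at Mnd1 against 9.46 at Wnt10b and 4.17 at Egr1. High peaks thus comprised both narrow and broad shapes.

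Most HDAC3 peaks lay far from gene ends. The distance from a peak centre to the nearest end of a protein-coding gene had a median of 23173 bp with quartiles of 6899 and 71398 bp. Of the 57920 peaks on chromosomes, 31.9% lay within 10 kb of an end, 32.4% beyond 50 kb and 19.1% beyond 100 kb. Height followed this distance. The share within 1 kb of an end was 12.4% in the highest 10% of peaks and 2.85% in the lowest 10%, and the median distance was 12768 bp against 48627 bp. Mean input tags were 5.92 and 0.901 in the same groups, and their part in this gradient was not tested.

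The strands of 17492 of the 21887 protein-coding genes could be read from the RefSeq promoter table, and for these the start was told from the 3' end. The start here is the outermost annotated end of the gene. A peak lay within 1 kb of the start in 14.5% of them (2532 genes) and within 1 kb of the 3' end in 5.74% (1004 genes), with 224 genes having both. Among genes longer than 10 kb the shares were 16.6% (15.9 to 17.3) and 5.80% (5.38 to 6.26). Around 21263 annotated starts the density was highest in the 200 bp just upstream, where it reached 149.8 peak centres per kb per 1000 starts. It averaged 91.8 over the kb upstream and 65.8 over the kb downstream. Between 1 and 5 kb away it was 31 upstream and 31.5 downstream. The 3' ends of genes over 10 kb showed no such rise: the last kb of the gene held 23.0 peak centres per kb per 1000 ends, the kb beyond it 36.4, and the stretch from 5 to 1 kb before the end 30.5.

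**Figure D2:**
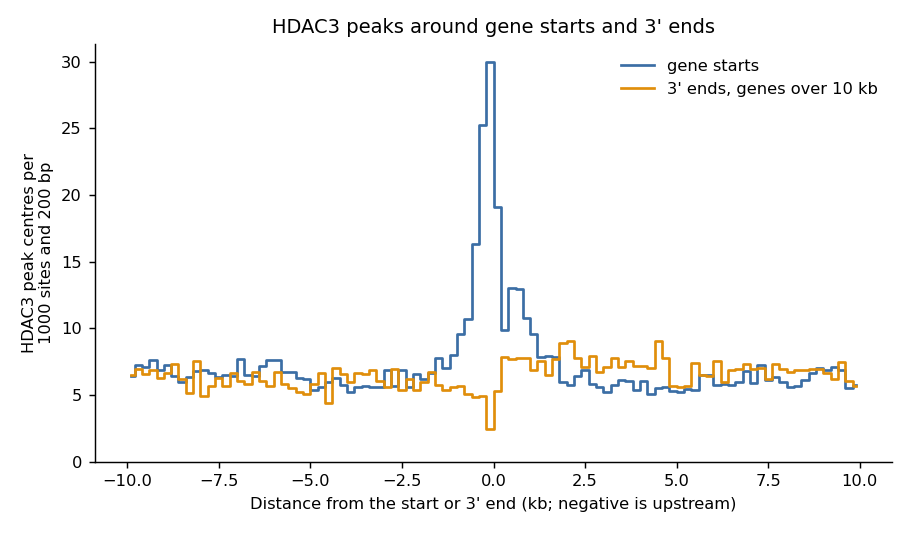
Number of HDAC3 peak centres per 1000 sites in steps of 200 bp, by distance in kb from annotated starts of protein-coding genes (blue, 21263 starts) and from 3' ends of genes over 10 kb (orange, 11079 ends). The blue line is highest in the 200 bp upstream of the start, where 637 centres lay, and the orange line is lowest just before 0.

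Peaks at starts were higher than peaks elsewhere. The median normalised tag count was 7.40 for the 2423 peaks within 1 kb of a start, 5.64 for the 845 at 3' ends, 5.11 for the 26745 others inside genes and 4.58 for the 11437 between genes beyond 50 kb. Mean input tags went the same way, at 3.75, 2.84, 2.58 and 2.15, and their part in the height was not tested. The median fold over input went the other way, from 6.07 at starts to 7.50 far from genes. Focus ratios were alike, with medians from 0.759 at starts to 0.793 far from genes. The highest peaks beyond 50 kb from any protein-coding gene end were those near Mdga1 (63.7) and Anxa3 (59.0), then one of 47.2 at 77119 bp from Irx2, an Iroquois homeobox gene. Next was 46.1 at 377119 bp from Maf, a bZIP factor gene of late differentiation, and then 43.7 at 91304 bp from the phosphatase gene Ptpn1.

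The highest peaks within 1 kb of a protein-coding gene end were at Plekha6 (59.9, at the start), the kinase gene Vrk3 (47.7) and the DNA end resection gene Rbbp8 (45.6). Aldh3b2 and Aldh3b3, which encode fatty aldehyde dehydrogenases, shared a peak of 43.3 that lay at the 3' end of Aldh3b3. At Cldn4 (40.5) and Tmc8 (35.9) the peak was at the start, and at Wipf2 (36.8), a regulator of actin assembly, it was at the 3' end. Cabp4 had 38.4. The strand of Vrk3, Rbbp8, Aldh3b2 and Cabp4 was not in the table. Input tags under the peaks of these named genes ran from 1 at Cldn4 to 12 at Plekha6.

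Genes whose starts lie close together in opposite directions carried HDAC3 more often at their starts. Of 1315 such genes with a divergent protein-coding start within 1 kb, 27.0% (24.6 to 29.5, exact Clopper-Pearson) had a peak within 1 kb of the start, against 13.5% (12.9 to 13.99) of the other 16177. A peak between such a pair counts for both genes, and the stretch searched around the pair overlaps, so genes of this count are not independent.

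The base composition of occupied promoters lay in the middle of the range. The centre of a peak fell within the 250 bases upstream of 807 of 21263 starts (3.80%). The share was 0.555% of the 2162 stretches with under 40% G and C, 3.01% from 40 to 50%, 6.95% (6.35 to 7.58) from 50 to 60%, 3.60% from 60 to 70% and 0.117% (0.024 to 0.342), or 3 of 2563, at 70% or more. Occupied stretches had a median of 56.0% G and C and 11 CpG dinucleotides, against 55.6% and 9 for the rest. Their quartiles of 51.2% and 59.6% lay closer together than the 47.2% and 64.4% of the rest. The caller compares each peak with its input and with the surrounding 10 kb, and the input over promoters without a peak was not analysed here.

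Among the searched motifs, AP-1 letters were in 10.8% (8.73 to 13.1) of the 807 occupied stretches and in 5.95% (5.63 to 6.28) of the 20456 others, and in 6.13% of all. ETS letters were in 14.9% (12.5 to 17.5) against 8.75%, or 8.98% of all, and the E-box in 9.54% (7.60 to 11.8) against 6.52%, or 6.63% of all. The CCAAT box was in 39.4% (36.0 to 42.9) against 35.2%, or 35.4% of all. The GC box was in 31.1% of both groups and of all. CRE letters were in 2.60% (1.62 to 3.95) against 1.90%, or 1.92% of all. Grainyhead letters occurred in 1 occupied stretch and 29 others, or 0.14% of all. Some genes contribute several starts and neighbouring stretches can overlap, so the intervals, which treat stretches as independent, are too narrow, and base composition was not matched.

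HDAC3 peaks were spread very unevenly over genes. With each peak given to the protein-coding gene whose end was nearest, 64.8% of the 21887 genes (14180) had at least 1 peak and 7707 had none. The mean was 2.65 peaks per gene and the median 1. Genes nearest to 5 or more peaks made up 17.6%, and genes nearest to 10 or more 6.01%. The top 10% of genes held 48.7% of the peaks, and 267 genes with 20 or more held 12.9%. Peak number followed the space around a gene, here called its territory, which is the stretch of chromosome nearer to its ends than to those of any other protein-coding gene. The Spearman correlation of peak number with territory was 0.59 across genes, as a description. Genes without a peak had a median territory of 24.3 kb and genes with 1 peak 30.8 kb, while genes with 2 to 4, 5 to 9, 10 to 19 and 20 or more had 57.8, 146, 317 and 651 kb.

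The gene nearest to the most peaks was Epha4, a receptor for ephrins, with 73 peaks in a territory of 1345 kb. Adgrl2, a latrophilin adhesion receptor gene, had 66 and the growth regulator gene Myc 64. Gata3, a transcription factor gene needed for the skin barrier and hair, and Ofcc1 had 61 each, Auts2 60 and Zfp608 56. Lrmda, a gene of melanocyte differentiation, had 54, Klf4, which encodes a zinc finger factor of barrier formation, 53, and the teneurin gene Tenm4 52. None of the first 6 had a peak within 1 kb of an end. Their highest peaks lay far away: that of Epha4 (22.5) at 286179 bp, that of Myc (27.8) at 366119 bp and that of Gata3 (22.0) at 504642 bp. The density around Klf4, 7.83 peaks per 100 kb, was the highest of the 10, and that around Tenm4, 2.31, the lowest, against 2.15 over all territory. The nearest gene was assigned by position alone.

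Summed over nearest peaks, the normalised tag count was highest for Klf4, at 525 over 53 peaks with a mean of 9.90. Adgrl2 (492), Myc (481), Epha4 (452), Gata3 (445) and Ofcc1 (433) were again in this group. Tle3, a Groucho family corepressor gene, reached 471 with 33 peaks and a mean of 14.3, the highest mean of the 10. Actl7b (407) and Gm826 (406) followed with 43 peaks each, and Rora (374), a nuclear receptor gene, with 47.

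Ranked by density among genes with 5 or more peaks, small genes in gene-rich places came first. Zbtb7b, a zinc finger gene, had 5 peaks in 20.1 kb, a density of 24.8 per 100 kb, with its highest peak (23.8) 6871 bp inside the gene. Calm4 and Calm5, neighbouring calmodulin-like genes of differentiating skin, had 6 and 5 peaks at densities of 23.6 and 22.8. Rnf39 had 23.2, Stoml1 21.1 and Mrpl45 21.1. Hr, the hairless corepressor of nuclear receptors that is needed for hair cycling, had 5 peaks at 20.7 per 100 kb, the highest of 17.3 over 12 input tags. 2610524H06Rik (20.3), Zmynd15 (19.7) and Agmat (19.5) ended the list. The 10 territories spanned at most 33.2 kb, so a single peak moves these densities much.

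**Figure D3:**
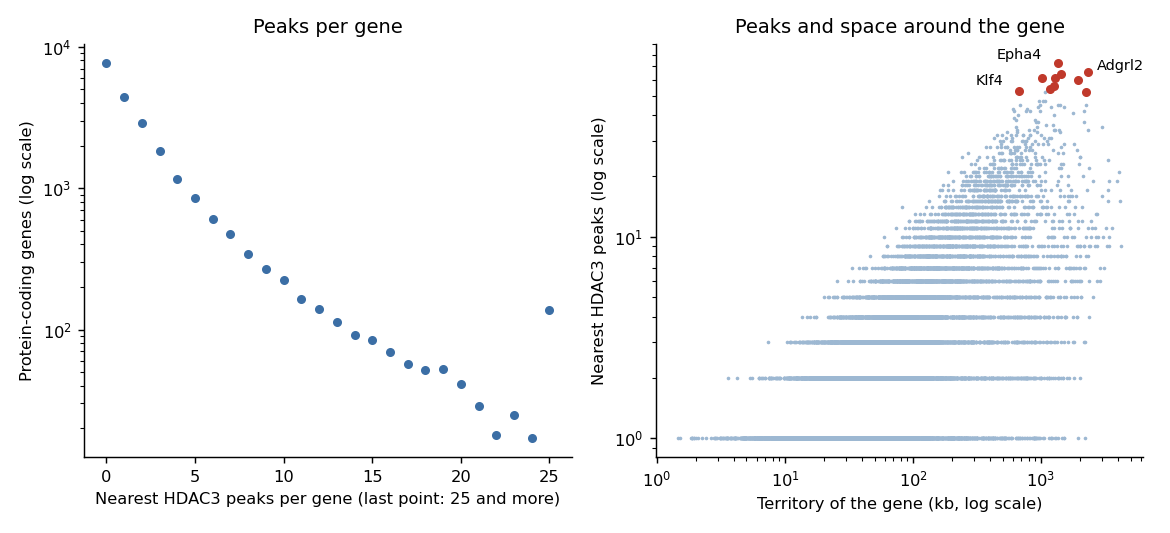
Left, number of protein-coding genes (log scale) by number of nearest HDAC3 peaks; the last point pools 25 and more. Right, nearest peaks against territory in kb for genes with at least 1 peak (both axes log scale); red points are the 10 genes with the most peaks, from 52 at Tenm4 to 73 at Epha4.

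The distance between neighbouring HDAC3 peaks had a median of 19066 bp, quartiles of 8271 and 42237 bp and a mean of 44186 bp. Of the peaks, 25.3% had a neighbour within 5 kb, 4.97% within 1 kb, and 7.75% had none within 50 kb. The number of neighbouring pairs stepped at 5 kb, from 1429 pairs 4 to 5 kb apart to 2145 pairs 5 to 6 kb apart, with 1475 and 1997 in the steps on either side. The caller's comparison with the surrounding 10 kb reaches 5 kb to each side and removed 58228 putative peaks, and its part in the step was not tested.

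Joined across distances of up to 12.5 kb, 5838 peaks (10.1%) formed 977 clusters of at least 5 peaks, which together covered 30.6 Mb. Peaks in clusters had a median normalised tag count of 6.52 against 5.11 outside, and 3.28 against 2.52 mean input tags, whose part in the height was not tested. Of the clusters, 47.5% held an end of a protein-coding gene. The largest, with 18 peaks over 94.5 kb on chromosome 13, 110402154 to 110496697, held none, and Plk2, a polo-like kinase gene, was nearest to most of its peaks. Clusters of 15 peaks lay over ends of Ints6 and Wdfy2 on chromosome 14, 62759708 to 62851291, and at Cwc22 on chromosome 2, 77946171 to 78024742. The glucosylceramide synthase gene Ugcg had a cluster of 14 peaks over 84.8 kb on chromosome 4, 59188807 to 59273621. Clusters of 13 peaks lay at the calmodulin-like genes Calm4 and Calml3, at Crct1, Lce1m and Lce3f in the epidermal differentiation complex, and at Synrg.

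By summed height a shorter cluster came first. It held Fos, the immediate early AP-1 gene, with 9 peaks over 38.1 kb on chromosome 12, 85439381 to 85477509. Their median normalised tag count was 30.3 and the sum 256, over a mean of 8.89 input tags, against a sum of 175 for the 15 peaks at Ints6 and Wdfy2. Among the next, Dusp16, a MAP kinase phosphatase gene, had 10 peaks summing to 159, and the cluster at Cavin1 and Stat3 had 12 summing to 147.

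**Figure D4:**
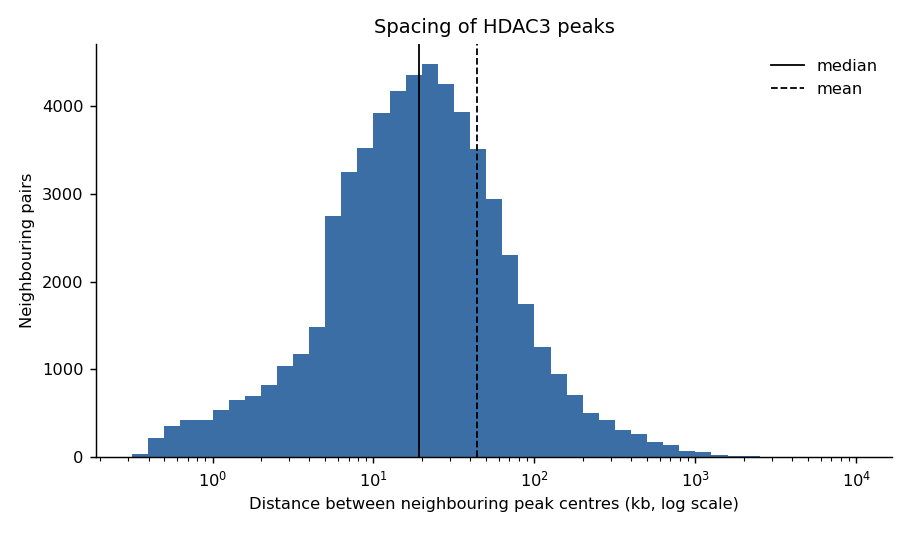
Number of neighbouring pairs of HDAC3 peaks by distance between centres (kb, log scale; steps of equal width on that scale). The solid line is the median of 19066 bp and the dashed line the mean of 44186 bp, and the count steps up at 5 kb.

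The longest distances between neighbouring peaks included tandem gene families. Stretches beyond the first or last peak of a chromosome, as on chromosome Y, were not counted. The longest between neighbours that held a protein-coding gene was 7.43 Mb on chromosome X, 23735335 to 31164591, with 23 protein-coding genes, 21 of them predicted Gm genes. A stretch of 5.28 Mb on chromosome X included 3 genes of the Cldn34 group. A stretch of 5.05 Mb on chromosome 7, 7288020 to 12341011, held 48 protein-coding genes, 41 of them vomeronasal receptor genes. How reads mapping to several such copies were treated is not given in the sources used here. Of all 1110 olfactory receptor genes, a family of the nose, 15.3% were nearest to a peak, and of 355 vomeronasal receptor genes 18.6%, against 64.8% of all protein-coding genes. The peaks nearest to these receptor genes had median normalised tag counts of 4.23 and 3.87.

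Peak density per chromosome ranged from 19.5 to 32.6 per Mb on autosomes, highest on chromosome 11, and was 5.17 per Mb on chromosome X. Chromosome Y had 6 peaks. On chromosome X, 9.63% of protein-coding genes had a gene-end peak, against 15.8% to 26.3% on autosomes. The mean input tags per peak were 1.66 on chromosome X and 2.30 to 3.01 on autosomes. The share of peaks without an input tag was 16.5% there and 6.06% to 11.5% on autosomes. The sex of the embryos is not given in the labels, and the part of copy number or depth in the low density on chromosome X was not tested. Tbl1x, which encodes a subunit of the NCoR complex and lies on chromosome X, had a peak 12.9-fold over input, with 4 input tags, 260 bp outside its start.

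Groups of genes with known roles were then described by the number, density and height of their nearest peaks. The 19 lists hold 352 genes, 6 of them in more than 1 list. For comparison, the median density over all protein-coding genes was 2.18 peaks per 100 kb. Of all these genes 64.8% were nearest to a peak, 17.6% had 5 or more nearest peaks and 18.9% had a gene-end peak. The highest peak of a gene with any had a median normalised tag count of 7.04. Peak number follows territory, whose median was 46.3 kb over all genes and ran from 23.7 to 504 kb over the lists. Mean input tags per peak ran from 1.56 to 4.0 over the lists, and the part of input in the heights was not tested.

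The 35 cornified envelope genes, whose products form the protein shell of dead surface cells, had the highest median density, at 8.53 per 100 kb. Of these genes 32 were nearest to a peak and 23 had one within 1 kb of an end, against 18.9% of all protein-coding genes. Many of them, including Lor, Ivl, Flg and the Sprr and Lce members, are neighbours in a single region of chromosome 3. The genes of this count are therefore not independent. A raised gene-end share was not particular to this list. It was 14 of 30 barrier lipid, 13 of 28 junction, 11 of 25 immediate early, 14 of 35 epidermal transcription factor and 8 of 20 hair follicle genes. Of the 19 lists, those of basal, spinous and Notch, cell cycle, endothelial and leukocyte, Merkel cell and hepatocyte genes lay below 18.9%, and the others above. The peaks nearest to cornified envelope genes had a median normalised tag count of 8.28 over a mean of 3.93 input tags. Flg2 and Flg, which encode the filament-aggregating proteins, had 11 and 10 nearest peaks, and the transglutaminase gene Tgm3 had 10. The loricrin gene Lor had 19.4 at its start over 5 input tags, and Ivl, the involucrin gene, had 17.8 at its start over 2. The highest gene-end peak of the list was that of Krtdap, a secreted differentiation protein, at 27.6 over 7 input tags. Evpl, the envoplakin gene, had the highest peak of any kind, 52.5 at 1015 bp inside the gene. Dmkn, Asprv1 and Krt2 were nearest to no peak. Territories were small, with a median of 23.7 kb.

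The 30 barrier lipid genes, which build and export the ceramides of the water seal, were all nearest to a peak, at a median density of 6.55 per 100 kb. Abca12, the lipid transporter of lamellar granules, had 19 peaks, the highest of 19 lying 113 bp outside its start over 9 input tags. Sptlc3, a subunit of the first enzyme of sphingolipid synthesis, also had 19, but at 2.49 per 100 kb. Ugcg had 13. The median over their 163 peaks was 9.33, the highest among the 19 lists, over a mean of 3.89 input tags.

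Of the 28 junction genes, 27 were nearest to a peak, against 64.8% of all protein-coding genes. Their median territory was 77.1 kb and their median density 6.41 per 100 kb. Cldn1, the claudin of the epidermal water barrier, had 21 peaks at 11.3 per 100 kb, none of them above 16.2. The desmocollin gene Dsc3 had 18, but in a territory of 1631 kb, or 1.10 per 100 kb. The scaffold gene Tjp1 had 17, at 4.72 per 100 kb. Cldn4 had the highest gene-end peak of the list, as given above, and Tjp3 had no peak.

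Basal layer genes anchor the dividing cells to the basement membrane. Of 20 genes, 17 were nearest to a peak and the median density was 4.40 per 100 kb, and 1 had a peak within 1 kb of an end, against 18.9% of all protein-coding genes. That gene was Fermt1, the kindlin of keratinocytes, with a low peak of 4.75 over 3 input tags. Fras1, a basement membrane protein gene, had 18 peaks, the linker gene Dst 16 and Fermt1 13. The basal keratin gene Krt5 was nearest to no peak, nor were Krt15 and Col7a1. Its partner Krt14 had 1 peak of 21.8 at 14607 bp. In the suprabasal keratin pair, Krt1 had 2 peaks, the higher of 34.0 at 10297 bp, and Krt10 had 3, the highest of 19 at 5845 bp inside the gene.

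Among 20 spinous and Notch genes, which act as cells leave the basal layer, 18 were nearest to a peak, at a median density of 4.58 per 100 kb, and 2 had a gene-end peak (against 18.9% of all protein-coding genes). The Notch target Hes1 had 17 peaks, the highest of 35.7 at 87409 bp, the ligand gene Jag1 16, and the receptor gene Notch2 14, with 41.2 at 12964 bp outside the gene and 14.6 at its start. Hey1, another target, and Maml1, a coactivator, had none. The median highest peak was 19.4 over the genes with any.

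Transcription factor genes of the epidermis had the most peaks per gene. All 35 were nearest to a peak, 28 had 5 or more and 18 had 10 or more, with a median of 11 peaks, in large territories with a median of 180 kb. Their median density of 6.59 per 100 kb was near that of the barrier lipid genes. Gata3 and Klf4 led, followed by Sox9, a hair follicle stem cell factor, with 42 peaks. Trp63, the master regulator of stratified epithelia, had 19, the highest of 19.4 at a focus ratio of 0.965. The highest gene-end peak was that of the homeodomain-only gene Hopx, 30.5 at its start over 7 input tags.

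Immediate early genes, which growth factors and stress induce within minutes, had the highest median for the top peak of a gene among the 19 lists. All 25 were nearest to a peak, at a median density of 7.86 per 100 kb, and that median was 25.9. The Jun gene had 17 peaks, with 50.9 at 23479 bp over 4 input tags and 32.2 at its start over 8. Klf6 had 42. Fos had 12 peaks that summed to 284, with 46.5 at 18731 bp over 10 input tags and 30.3 at its 3' end. Genes of EGF receptor signalling followed at a median density of 7.27, all 18 with a peak. The receptor gene Egfr had 23, the ERK phosphatase gene Dusp6 20, with 36.1 at 173750 bp and 17.1 at its start, and the inhibitor gene Spry2 16.

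The genes of the HDAC3 complex itself had a median density of 2.01 per 100 kb, close to that of all genes, with 10 of 12 nearest to a peak. Hdac3 and Cops2 had none, and the corepressor gene Ncor1 had 6, none of them within 1 kb of an end. The gene-end share was not close to that of all genes: 6 of the 12 had such a peak, against 18.9% of all protein-coding genes. The subunit genes Gps2 and Tbl1x had peaks 11.1-fold and 12.9-fold over input at their starts, and Tbl1xr1 had 41 nearest peaks in a territory of 1786 kb. Bcl6, a repressor that recruits the complex, had 18 with a highest of 31 at 68434 bp. Nr1d1, the clock receptor REV-ERB alpha that depends on it, had a peak of 20.6 at its start over 12 input tags.

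Nuclear receptor genes, several of which use NCoR1 as a corepressor, had a median density of 2.5 per 100 kb. Rora had 47 peaks, Rarb 29 and the glucocorticoid receptor gene Nr3c1 18. Rxra, the shared partner of many of these receptors, had 3, one of them 40.7 inside the gene, and Vdr, the vitamin D receptor gene, 7. Rxrb and Nr2f6 were among the 3 with none, and the highest gene-end peak was 16.9 at Esrra. Of the 17 circadian clock genes, 14 were nearest to a peak at a median density of 3.39. The core factor gene Arntl had 13, the highest of 35.7 at 93341 bp over 1 input tag, Bhlhe40 had 9 and Nr1d2 6, and Clock, Dbp and Tef had none. Of the 20 hair follicle genes 19 had a peak, at 4.25 per 100 kb. Sox9 had 42 peaks, Bmp4 20, and Lef1 and Shh 15 each. The highest at a gene end was the peak of Wnt10b named above, 24.1 over 2 input tags, and Gli1 had none.

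Of 25 cell cycle genes, 17 (68.0%) were nearest to a peak, close to the 64.8% of all protein-coding genes. The proliferation marker gene Mki67, with 13, was the 1 gene nearest to 5 or more, against 17.6% of all. Their median density of 2.25 per 100 kb was close to that of all genes. The cyclin D1 gene Ccnd1 had 3, the highest of 36.5 lying 116686 bp away over 13 input tags. Of these genes 2, E2f1 and Cdkn2a, had a gene-end peak, against 18.9% of all protein-coding genes, and the highest was 8.28 at E2f1. Ccna2, Cdk4, Cdkn1c, Plk1, Aurka, Aurkb, Mcm2 and Pcna had none.

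Marker genes of other cell types had peaks as well, and their height differed between lists. All 7 melanocyte and all 7 fibroblast genes were nearest to a peak, in large median territories of 127 and 272 kb. The highest nearest peak of a gene had a median of 4.75 in both lists and maxima of 6.34 and 7.92. The melanosome gene Pmel had 6.69 within 1 kb of an end, from a peak nearer to another gene. The pigment cell factor gene Mitf had 15 peaks, none above 5.46, and Dcn, a dermal proteoglycan gene, had 10, none above 4.75. Mean input tags per peak were 1.72 and 1.56, and median densities were 2.60 and 2.08 per 100 kb, against 2.18 over all protein-coding genes. Endothelial and leukocyte genes reached 19 at Pecam1, which had 11 peaks at 11.1 per 100 kb, while Cdh5 had 16 at 2.24. For this list the median highest peak of a gene was 8.715, against 7.04 over all protein-coding genes with any. Its median density was 2.90 per 100 kb, and mean input tags per peak were 2.32. A gene-end peak was found at 2 melanocyte, 3 fibroblast and 0 of the 10 endothelial and leukocyte genes, against 18.9% of all protein-coding genes. Among 4 Merkel cell genes Sox2 had 23 and Krt20 none, and the median highest peak of those with any was 7.04. Neuronal genes had a median density of 1.91, with 16 peaks at Cntnap2, 13 at Syt1, 11 at Gria2 and none at Slc17a7. Rbfox3 carried 27.6 at 34228 bp inside the gene. Hepatocyte genes had a median density of 0.642, with 8 peaks at Apob and none above 6.87. The albumin gene Alb was nearest to no peak, nor were Apoa1, Serpina1a and Tat. The 80 cytosolic ribosomal protein genes, active in all cells, had a median density of 2.76, with 28 (35.0%) having a gene-end peak, against 18.9% of all protein-coding genes.

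**Figure D5:**
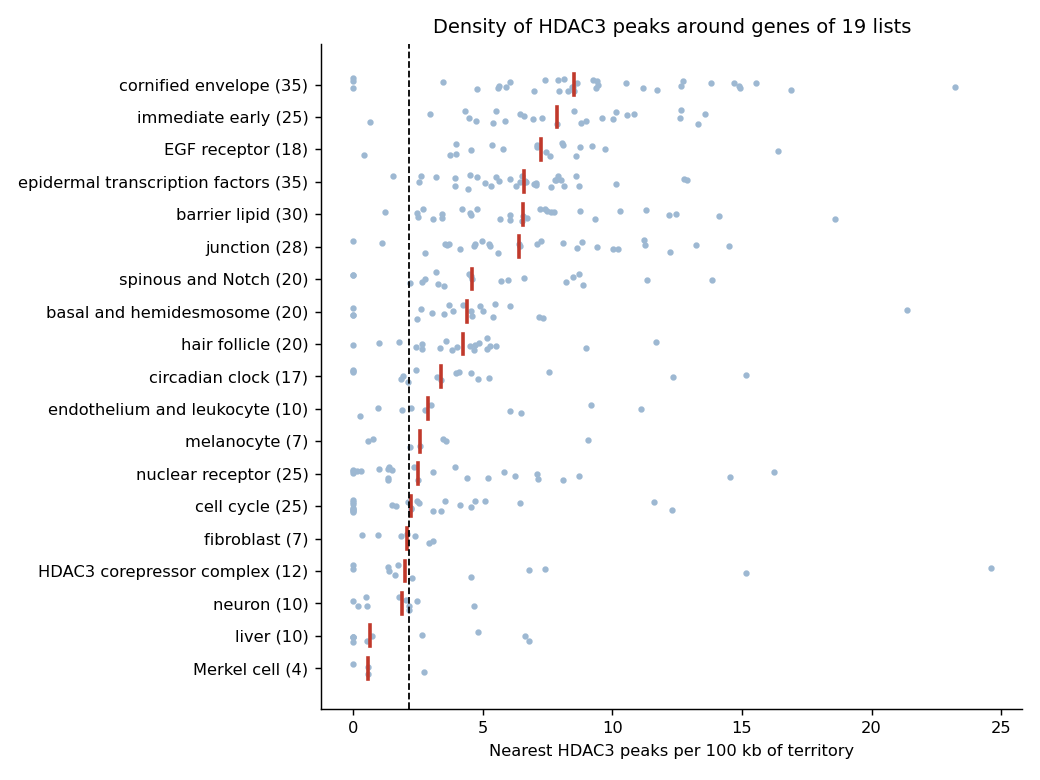
Nearest HDAC3 peaks per 100 kb of territory for each gene (blue points) of 19 lists, with the number of genes in brackets and the median as a red bar; points are spread vertically for visibility. The dashed line is the median over all protein-coding genes, 2.18, and the list medians run from 0.578 for Merkel cell genes to 8.53 for cornified envelope genes.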

How the data were processed

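HDAC3 ChIP-seq and input DNA from E18.5 epidermis were analysed from the authors' deposited HDAC3 peak list, grouped by the antibody in the labels. The build was GRCm38.p5 and the tools included bcl2fastq, STAR and HOMER, according to the submitters' processing notes, without versions. Per the file headers, HOMER called peaks of 185 bp in factor style, at least 4-fold over input and over the surrounding 10 kb, with a Poisson p-value of 1e-04 and a false discovery rate of 0.001. The deposited signal is a tag number normalised to a total of 10000000 tags. The deposited score was read only for the number of peaks at its limit of 16 and used for no result, and the p-value columns were not used. The fold over input and over the local region are the authors' ratios, and the focus ratio is the deposited fraction. The list of KLF4 peaks supplied only its number of peaks.

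Peak centres were placed on 21887 protein-coding genes of a RefSeq table of GRCm38.p6, which shares coordinates of the primary chromosomes with GRCm38.p5. Each peak went to the gene with the nearest end, and 43 peaks at the same distance from 2 genes went to the first in order. Strand was known for 17492 genes. Comparisons with genes omit the 16 peaks of unplaced contigs. Genes were named by rank (most peaks, summed tag count, gene-end peak, density, input tags, focus ratio, clusters, gaps) and, within each list, by most peaks, highest gene-end peak and absence of peaks. A few genes that these rules name are not reported here. The 10 highest peaks, the 5 highest far from genes, the clusters by summed tag count, the promoters shown and further list members were named after their values were seen, and the receptor and ribosomal protein families were added then. The members, lists and motifs were chosen with earlier results of these data known. Calculations used Python 3.11.15, numpy 2.4.6, pandas 2.3.3 and scipy 1.17.1. The placement, spacing and cluster steps were tested on simulated data.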

Additional observations from a re-analysis of the deposited data

Results flagged for a closer look

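The peaks on unplaced contigs, which enter no comparison with genes, numbered 16 on 12 contigs. They stood above the input library with a median fold of 12.2 (range 4.08 to 73.4), had normalised tag counts from 2.29 to 20.3 with a median of 6.43, and lay over at most 4 input tags.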

How the results depend on the processing

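With peaks at least 8-fold over input alone, the share of protein-coding genes nearest to a peak moved from 64.8% to 45.1%, the share with a gene-end peak from 18.9% to 6.76%, the median spacing from 19066 to 51416.5 bp, the share of peaks in clusters from 10.1% to 0.709%, the median normalised tag count from 5.11 to 4.75 and the median focus ratio from 0.781 to 0.786. With the higher 50% of peaks by normalised tag count, the first 3 of these became 49.0%, 14.4% and 23013 bp, the focus ratio 0.772, and the share of peaks without an input tag 3.34% instead of 8.16%. Gene-end windows of 500 bp and 5 kb gave 11.8% and 46.2%. Limiting the nearest gene to 50 kb gave 62.6%. Joining peaks across 5000 or 20000 bp put 0.195% or 27.5% in clusters. Fewer peaks enter by construction in the stricter settings. Leaving out the unplaced contigs kept the share without input tags within its interval (8.15%). No paired analysis was possible because each antibody had 1 library. At an input of 2.57 tags per peak width, a fold at a single peak is imprecise.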

Other observations

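Ends of noncoding genes carried some of the highest peaks. The long noncoding RNA gene Neat1, whose RNA builds nuclear paraspeckles, had a peak of normalised tag count 49.8 over 11 input tags within 1 kb of an end, at chromosome 19, 5845292 to 5845476, with a focus ratio of 0.625. The long noncoding RNA genes 9330133O14Rik and Gm20735 shared a peak of 49.3 over 7 input tags that lay 1197 bp from an end of Mvd, a gene of cholesterol synthesis. Gm35028, whose peak of 45.4 lay 8947 bp from Prdm1, followed, and then Gm32685 and Gm32747, which shared the far peak of 43.7 named with Ptpn1. These genes were chosen after their values were seen.

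Of 12727 long noncoding RNA genes, 15.3% (14.7 to 15.97, exact Clopper-Pearson) had a peak within 1 kb of an end, against 18.9% of protein-coding genes. The share was 8.31% of 1228 microRNA genes, 8.13% of 1340 snoRNA genes and 5.28% of 1004 snRNA genes. It was 5.51% of 9944 pseudogenes and 29.2% (24.8 to 33.8) of 408 tRNA genes. In short genes the windows at both ends overlap, so less sequence was searched per gene than in long genes. The 119 occupied tRNA genes had 86 distinct highest peaks, with a median normalised tag count over genes of 8.80 and a median of 4 input tags. Several tRNA genes lie within reach of the same peak, so the interval is too narrow.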
